A study of Rattus norvegicus with 6 samples.

Results

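The macrophage identity and residency markers examined here were 10 genes, taken from the 34106 genes of the deposited table by an exact match of the gene symbol: Cd68, Adgre1, Csf1r, Cx3cr1, Mrc1, Cd163, Siglec1, Mpeg1, Aif1 and Folr2. Each symbol matched 1 row, and all 10 genes passed the filter on low counts. Bulk RNA-seq was performed in 3 IANX and 3 Sham samples, 14 days after the operation, on the inferior alveolar nerve (IAN), which supplies sensation to the lower teeth, chin and lip. In IANX rats, the left cheek and masseter were opened, the cortical bone over the nerve was removed, and the IAN and the mental nerve were cut, leaving a gap that was not sutured. Sham rats had the soft tissue of the cheek cut while the nerve was left whole, and whether the bone was opened is not stated. All rats were male Sprague-Dawley rats. The treatment label of the IANX samples reads transfection, and they are called IANX here after their titles and the study's methods.

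Macrophages enter or divide in a cut nerve, where they clear myelin and axon debris, and a smaller population resides in the intact nerve. CSF1R, the receptor for colony-stimulating factor 1 and interleukin-34, carries the survival signal of macrophages. CD68 is a glycoprotein of the lysosome and endosome, ADGRE1 (the F4/80 antigen of mice) is an adhesion receptor on the macrophage surface, AIF1 (also named IBA1) is an actin-bundling protein, and MPEG1 (perforin-2) is a pore-forming protein of phagocytes. CX3CR1 is the receptor for fractalkine. MRC1 (CD206) is the mannose receptor, CD163 takes up haemoglobin bound to haptoglobin, SIGLEC1 (CD169) is a lectin that binds sialic acid, and FOLR2 is the folate receptor β of resident macrophages in many tissues. None of these genes is unique to macrophages: osteoclasts, dendritic cells and monocytes share several of them. In bulk tissue, a lower number of cells and less RNA per cell cannot be told apart, and the same holds for higher values.

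The promoters of 3 of these genes are shown because Cd68 and Csf1r are widely used macrophage promoters and Mpeg1 had the largest change among the 10 genes. Each sequence runs from 250 bases before to 50 bases after the gene start in RefSeq on the build GRCr8, 5′ to 3′ on the strand of the gene. Capitals mark GAGGAA on either strand, the core of the PU box that the myeloid transcription factor PU.1 binds.
Cd68, chr10:54882392-54882691, minus strand: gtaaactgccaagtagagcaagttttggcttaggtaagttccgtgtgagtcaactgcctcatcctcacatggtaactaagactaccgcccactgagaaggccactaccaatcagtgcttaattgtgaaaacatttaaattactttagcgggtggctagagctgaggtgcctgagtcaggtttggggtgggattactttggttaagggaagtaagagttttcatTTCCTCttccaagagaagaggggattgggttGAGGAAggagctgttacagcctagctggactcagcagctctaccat
Csf1r, chr18:56834129-56834428, plus strand: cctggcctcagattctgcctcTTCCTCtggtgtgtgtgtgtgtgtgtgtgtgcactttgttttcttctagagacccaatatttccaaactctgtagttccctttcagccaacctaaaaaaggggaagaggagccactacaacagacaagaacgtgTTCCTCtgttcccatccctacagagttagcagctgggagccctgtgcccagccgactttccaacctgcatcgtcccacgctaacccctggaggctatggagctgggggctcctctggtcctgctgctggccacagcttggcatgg
Mpeg1, chr1:218876644-218876943, plus strand: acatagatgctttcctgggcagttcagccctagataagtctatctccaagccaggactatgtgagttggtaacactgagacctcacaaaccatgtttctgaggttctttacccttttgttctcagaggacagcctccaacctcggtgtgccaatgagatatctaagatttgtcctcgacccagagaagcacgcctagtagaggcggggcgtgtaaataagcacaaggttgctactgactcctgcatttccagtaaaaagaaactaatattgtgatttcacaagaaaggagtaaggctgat
The RefSeq promoters matched 8 of the 10 genes by symbol, and Siglec1 and Aif1 were not matched. GAGGAA was present in 4 of these 8, with 2 matches each in Cd68, Csf1r and Mrc1 and 1 match in Adgre1. It was present in 27.6% of all 33469 promoters of this length. TTGCNNAA, a palindrome bound by C/EBP factors, was present in 1 of the 8 (Adgre1) and in 10.6% of all promoters, and it overlapped no GAGGAA there. These are matches of letters in a short window, and binding was not measured.

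The libraries held 13988750 to 16440720 counts in IANX and 14630127 to 17105402 counts in Sham. Levels are CPM, counts relative to library size after TMM scaling (a trimmed mean of the log ratios between libraries). IANX was tested against Sham over 15374 genes by quasi-likelihood in edgeR (two-sided), with a call at an adjusted p under 0.05. Samples of a group came from separate rats. Markers of neighbouring tissue differed strongly between libraries. Summed tooth markers reached 55919 and 60710 CPM in IANX 1 and IANX 3 and 1821 CPM in IANX 2, against 109 to 860 CPM in Sham, and 5 of the 6 tested were higher. Epithelial markers (5 of 5 higher) summed to 1604, 9.26 and 3554 CPM in IANX 1, 2 and 3, against 12.4 to 24.5 CPM in Sham. Bone markers (5 of 6 higher) summed to 596 to 2339 CPM in IANX and 322 to 1069 CPM in Sham, and skeletal muscle markers (none of 5 called by edgeR, also at an unadjusted p under 0.05, or by DESeq2) to 72.0 to 968 CPM in IANX and 53.6 to 335 CPM in Sham. All 6 Schwann cell markers, which define the glia of the nerve, were lower, at 3253 to 12336 CPM in IANX and 141853 to 188539 CPM in Sham. Of 4 fibroblast markers, 2 were higher, and none of 3 endothelial markers was called by edgeR, with 1 higher and 1 lower at an unadjusted p under 0.05 and 1 lower by DESeq2. The part of this composition in the levels of the macrophage genes was not tested.

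At day 14, 4 of the 10 genes were higher in IANX than in Sham (Mpeg1, Siglec1, Cx3cr1 and Cd68), none was lower and 6 were not called, where 17.8% of all tested genes were called higher and 34.4% were called in either direction. Their fold changes were 8.03 for Mpeg1, 5.33 for Siglec1, 2.75 for Cx3cr1 and 2.62 for Cd68. The 6 genes that were not called had fold changes of 1.68 to 2.47, and all 10 genes had an unadjusted p under 0.05 with the higher mean in IANX, as did 25.1% of all tested genes. The median log2 fold change of the 10 genes was 1.3, and that of all tested genes was 0.08. In 8 of the 10 genes every IANX sample was above every Sham sample, as in 27.0% of all tested genes. The sum over the 10 genes was 295, 631 and 260 CPM in IANX 1, 2 and 3, against 187, 157 and 179 CPM in Sham 1, 2 and 3. IANX 2 thus had the highest sum, and the groups did not overlap.

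**Figure D1:**
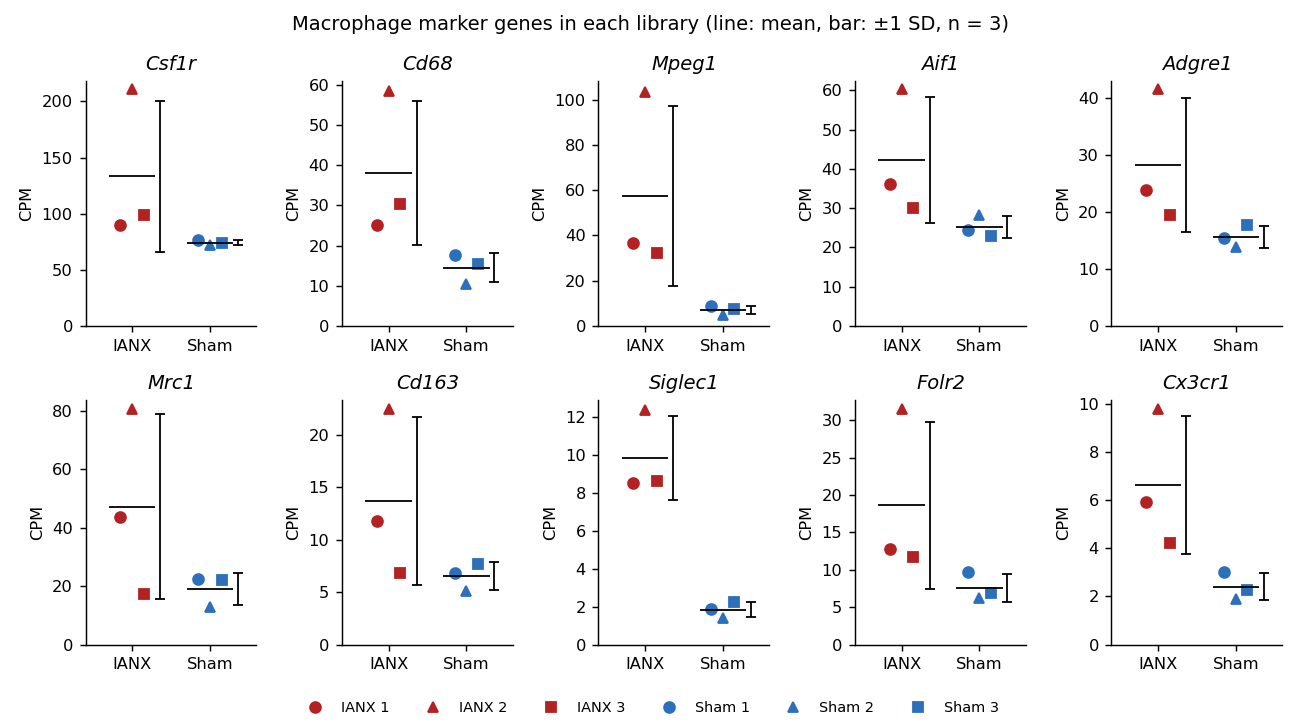
TMM-normalized CPM of the 10 genes in each library, on a linear axis from 0, with the group mean (line) and SD (bar, n = 3). IANX 2 was the highest of the 6 libraries in every panel, and IANX 3 lay within the Sham range for Mrc1 and Cd163.

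Among the identity markers, Mpeg1 differed most. Mpeg1 had 36.7, 103 and 32.2 CPM in IANX 1, 2 and 3, against 8.63, 5.08 and 7.68 CPM in Sham 1, 2 and 3. Its lowest IANX sample was thus several times its highest Sham sample. The mean was 57.4 ± 39.8 CPM in IANX and 7.13 ± 1.84 CPM in Sham (SD, n = 3 each), a log2 fold change of 3.0 ± 0.50 (SE, edgeR adjusted p = 0.00491). The file annotates Mpeg1 (ENSRNOG00000021084) as a pseudogene, and the other 9 genes as protein coding.

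Cd68 had 25.2, 58.6 and 30.4 CPM in IANX 1, 2 and 3, against 17.6, 10.5 and 15.5 CPM in Sham 1, 2 and 3. The groups did not overlap, and IANX 1 and Sham 1 were the closest pair of samples between them. The log2 fold change was 1.39 ± 0.36 (SE, edgeR adjusted p = 0.0225). Without Sham 1, 2 or 3, the edgeR adjusted p of Cd68 was 0.0559, 0.0989 and 0.0795, with log2 fold changes of 1.54, 1.19 and 1.42. In these fits 9.61%, 6.36% and 5.95% of all tested genes were called higher, against 17.8% with all 6 libraries. This fall in calls over all genes applies to every call given below as lost without a Sham library.

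Csf1r, Adgre1 and Aif1 were not called, with adjusted p of 0.0787, 0.0616 and 0.0670 by edgeR. Csf1r had 89.9, 211 and 98.9 CPM in IANX 1, 2 and 3, against 76.6, 71.8 and 74.3 CPM in Sham 1, 2 and 3, a log2 fold change of 0.84 ± 0.32 (SE). The Sham samples were nearly equal (SD 2.42 CPM), and IANX 1 and IANX 3 lay above them, nearer to them than IANX 2 did. Adgre1 had 23.8, 41.6 and 19.4 CPM in IANX 1, 2 and 3, against 15.5, 13.9 and 17.7 CPM in Sham 1, 2 and 3, a log2 fold change of 0.85 ± 0.30 (SE). Aif1 had 36.3, 60.5 and 30.2 CPM in IANX 1, 2 and 3, against 24.4, 28.3 and 23.0 CPM in Sham 1, 2 and 3, a log2 fold change of 0.75 ± 0.27 (SE). For each of these 3 genes the lowest IANX sample was above the highest Sham sample. These were 89.9 against 76.6 CPM for Csf1r, 19.4 against 17.7 CPM for Adgre1 and 30.2 against 28.3 CPM for Aif1. Without IANX 3, the adjusted p was 0.0433 for Adgre1 and 0.0455 for Aif1, and without IANX 1 it was 0.0435 for Csf1r. Without any other single library, the edgeR adjusted p was 0.0753 to 0.196 for Adgre1, 0.0810 to 0.204 for Aif1 and 0.0697 to 0.218 for Csf1r.

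Among the receptors linked to residency and scavenging, 2 of 5 were higher in IANX, Siglec1 and Cx3cr1. Siglec1 had 8.49, 12.4 and 8.59 CPM in IANX 1, 2 and 3, against 1.86, 1.42 and 2.22 CPM in Sham 1, 2 and 3. Relative to their mean, its IANX samples were the most alike of the 10 genes, and the gap between the groups was wider than the range within either. The log2 fold change was 2.41 ± 0.32 (SE, edgeR adjusted p = 0.00221). Cx3cr1 had 5.94, 9.81 and 4.21 CPM in IANX 1, 2 and 3, against 3.04, 1.92 and 2.29 CPM in Sham 1, 2 and 3, from 71 to 180 counts in IANX and 23 to 44 counts in Sham. Its groups did not overlap, and its log2 fold change was 1.46 ± 0.40 (SE, edgeR adjusted p = 0.0288). The call of Cx3cr1 was lost without IANX 1 (adjusted p = 0.0517), IANX 2 (0.0541), Sham 1 (0.0612), Sham 2 (0.111) or Sham 3 (0.108). Its log2 fold change in these fits was 1.03 to 1.64.

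Folr2 lay at the threshold. It had 12.7, 31.5 and 11.7 CPM in IANX 1, 2 and 3, against 9.67, 6.16 and 6.87 CPM in Sham 1, 2 and 3, a log2 fold change of 1.3 ± 0.43 (SE, edgeR adjusted p = 0.0502). Without IANX 1 or IANX 3 its adjusted p was 0.0426 and 0.0447, and with DESeq2 on all 6 libraries it was 0.0184. By edgeR it was 0.0782 without IANX 2, and 0.0858 to 0.172 without each Sham library in turn.

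Mrc1 and Cd163, both endocytic receptors of macrophages with a scavenging phenotype, were the 2 genes whose groups overlapped. Mrc1 had 43.7, 80.4 and 17.4 CPM in IANX 1, 2 and 3, against 22.4, 12.7 and 22.1 CPM in Sham 1, 2 and 3, a log2 fold change of 1.3 ± 0.51 (SE, edgeR adjusted p = 0.0861). Cd163 had 11.8, 22.5 and 6.82 CPM in IANX 1, 2 and 3, against 6.83, 5.08 and 7.68 CPM in Sham 1, 2 and 3, a log2 fold change of 1.07 ± 0.44 (SE, edgeR adjusted p = 0.0955). In both genes IANX 3 lay within the range of the Sham samples and the other IANX samples above it. Without IANX 3, the adjusted p was 0.0215 for Mrc1 and 0.0395 for Cd163. Without any other single library, the edgeR adjusted p was 0.124 to 0.261 for Mrc1 and 0.124 to 0.274 for Cd163. DESeq2 called Mrc1 (adjusted p = 0.0354) but not Cd163 (adjusted p = 0.0698), and it called 6 of the 10 genes higher in all, with 17.8% of genes with an adjusted p called higher.

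The size of the IANX value rested in large part on 1 library. IANX 2 was the highest of the 6 libraries for all 10 genes, as it was for 19.5% of tested genes, and it exceeded the next IANX library 1.44-fold (Siglec1) to 2.82-fold (Mpeg1). The mean of IANX 1 and IANX 3 was 1.27-fold (Csf1r) to 4.83-fold (Mpeg1) the Sham mean, with a median of 1.61-fold. With IANX 2 left out, the log2 fold change was 2.23 for Mpeg1, 2.17 for Siglec1, 1.03 for Cx3cr1 and 0.90 for Cd68, and it was 0.31 to 0.65 for the other 6 genes. Mpeg1, Siglec1 and Cd68 (adjusted p = 0.0205) were then called higher, with 23.1% of tested genes. Set alone against Sham, IANX 2 had log2 fold changes of 1.27 (Aif1) to 3.86 (Mpeg1). As IANX 2 was the highest library for all 10 genes, these changes were bound to be above those with all 6 libraries. The spread in that fit came from the Sham libraries only, so its calls are not given here. Among the IANX libraries, IANX 2 also had the lowest summed tooth markers, given above. The part of tissue composition in the higher values of IANX 2 was not tested.

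**Figure D2:**
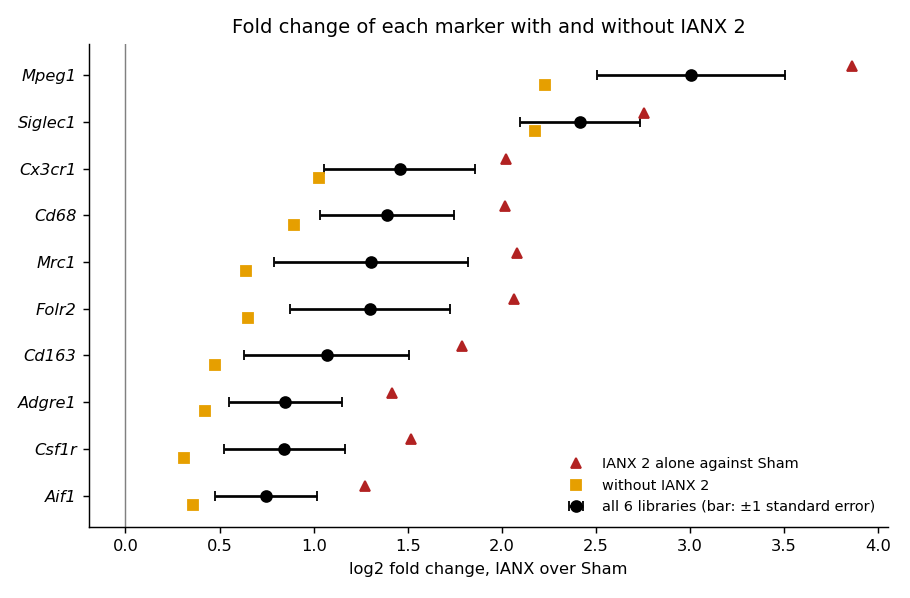
Log2 fold change of IANX over Sham for each gene (x axis) with all 6 libraries (circles, bar: 1 standard error), for IANX 2 alone against Sham (triangles) and without IANX 2 (squares). All values are above 0, and Mpeg1 and Siglec1 stay above 2 in each of the 3 settings.

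The log2 fold changes of the 10 genes ran from 0.75 (Aif1) to 3.0 (Mpeg1). Since Csf1r is expressed throughout the macrophage lineage, each of the other 9 genes was set against Csf1r within the same library, as the difference of log2 CPM, which does not depend on the scaling between libraries. Relative to Csf1r, Mpeg1 was 2.08 and Siglec1 1.61 log2 units higher in IANX than in Sham, and Cx3cr1 and Cd68 were 0.62 and 0.58 log2 units higher. In these 4 genes the IANX and Sham libraries did not overlap, and each gave p = 0.1 in the two-sided exact permutation test, the smallest that 3 against 3 samples allow. These 4 also had the largest fold changes of the 10, and Csf1r had a low one (log2 fold change 0.84). Their separation thus restates that order in part. The share of all tested genes that lie apart from Csf1r in this way was not measured. Mpeg1 relative to Csf1r was -1.29, -1.03 and -1.61 in IANX 1, 2 and 3, against -3.13, -3.79 and -3.25 in Sham 1, 2 and 3. Siglec1 relative to Csf1r was -3.39, -4.08 and -3.50 in IANX 1, 2 and 3, against -5.27, -5.54 and -4.99 in Sham 1, 2 and 3. IANX 2, the highest library in CPM, was thus the lowest IANX library for Siglec1 once set against Csf1r.

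The other 5 genes overlapped between groups on this scale. The difference was 0.43 for Folr2 (exact p = 0.2), 0.35 for Mrc1 (exact p = 0.6), 0.18 for Cd163 (exact p = 0.7), 0.04 for Adgre1 (exact p = 0.8) and -0.05 for Aif1 (exact p = 0.7). Mrc1 varied most among the IANX libraries, at -1.04, -1.39 and -2.50 in IANX 1, 2 and 3, against -1.77, -2.48 and -1.74 in Sham 1, 2 and 3. Cd163 showed the same order of libraries in IANX, with IANX 3 the lowest. No p of these 9 relations could pass 0.05, and they are not adjusted.

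**Figure D3:**
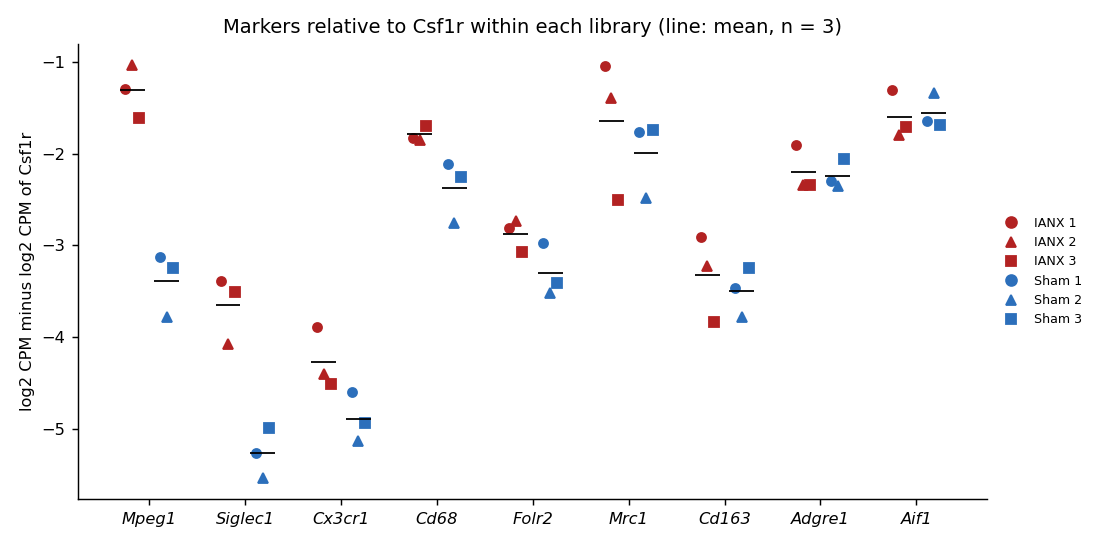
Log2 CPM of each gene minus log2 CPM of Csf1r in each library, with the group mean as a line (n = 3). The IANX and Sham libraries are apart for Mpeg1, Siglec1, Cx3cr1 and Cd68, and overlap for the other 5 genes.

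Levels of different genes were compared as FPKM, which divides by gene length. In IANX, the order of mean FPKM was Csf1r (33.1), Cd68 (30.3), Mpeg1 (25.1), Aif1 (23.2), Folr2 (19.4), Mrc1 (8.91), Adgre1 (8.54), Cx3cr1 (4.95), Cd163 (3.18) and Siglec1 (1.35). The range over the 3 libraries of every neighbouring pair in this order overlapped. In Sham, the order was Csf1r (18.8), Aif1 (14.2), Cd68 (11.8), Folr2 (8.04), Adgre1 (4.85), Mrc1 (3.68), Mpeg1 (3.18), Cx3cr1 (1.84), Cd163 (1.55) and Siglec1 (0.257). There, Csf1r was above Aif1, Folr2 above Adgre1, Adgre1 above Mrc1 and Cd163 above Siglec1 without overlap, and the other neighbours overlapped. By mean FPKM, Mpeg1 was thus at place 3 in IANX and place 7 in Sham. Its place above Aif1 in IANX came from IANX 2 (45.9 against 33.7 FPKM). Mpeg1 was below Aif1 in IANX 1 (15.8 against 19.6 FPKM) and IANX 3 (13.8 against 16.3 FPKM). Of the summed FPKM of the 10 genes, Mpeg1 made 13.9%, 17.9% and 13.2% in IANX 1, 2 and 3, against 5.15%, 3.72% and 5.0% in Sham 1, 2 and 3. Csf1r made 19.3%, 20.8% and 23.0% in IANX 1, 2 and 3, against 26.0%, 29.8% and 27.4% in Sham 1, 2 and 3. Siglec1 had the lowest level per length in both groups.

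**Figure D4:**
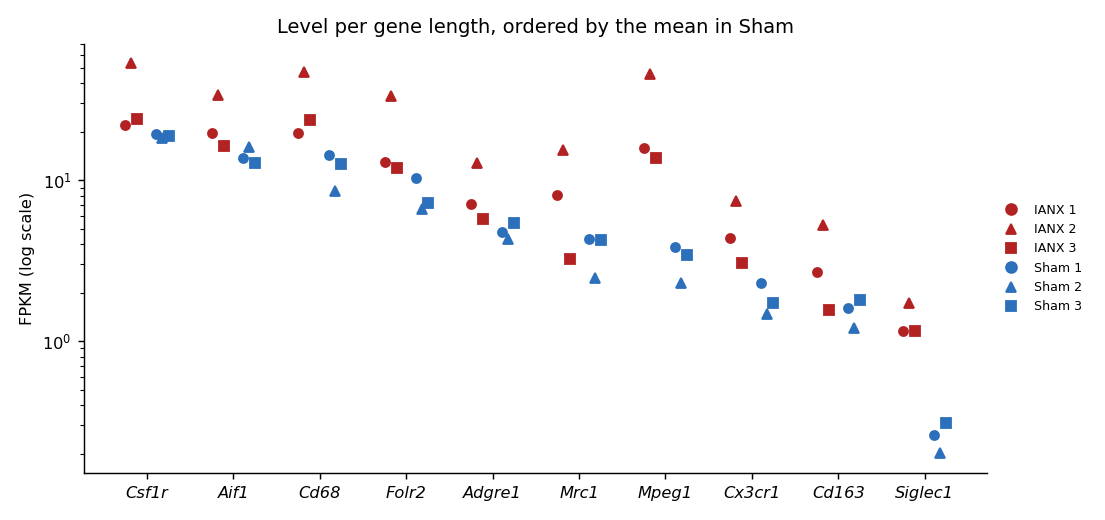
FPKM of each gene in each library on a log axis, with the genes ordered by their Sham mean. Mpeg1 lies among the highest genes in IANX (13.8 to 45.9 FPKM) and among the low ones in Sham (2.29 to 3.85 FPKM).

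The profiles of the genes across the 6 libraries were compared by the root mean square difference of log2 CPM, each gene centred on its own mean. The closest pairs among the 10 were Adgre1 and Csf1r (0.17), Csf1r and Aif1 (0.19) and Adgre1 and Aif1 (0.19), which are 3 identity markers of small change. The most distant pair was Mpeg1 and Aif1 (1.13). Over all tested genes with a symbol and a mean of at least 5 CPM, the nearest to Mrc1 was Cd163 (0.23), another of the 10. The 3 nearest to Cd163 were Dnajc12 (0.187), Clec10a (0.188), a lectin of macrophages and dendritic cells, and Cnrip1 (0.194). C1qc (0.14), a chain of complement C1q, was at place 3 for Folr2. The nearest to Siglec1 was Colec12 (0.14), a scavenger receptor. The nearest to Cd68 was Cp (0.07, ceruloplasmin), to Csf1r Crem (0.08), to Adgre1 Gpr183 (0.07), to Aif1 Rpp40 (0.08), to Cx3cr1 Soat1 (0.14) and to Folr2 Nipsnap3b (0.13). The nearest to Mpeg1 were Col8a1 (0.14), a collagen, and Ibsp (0.17), a sialoprotein of bone. These values describe the 6 libraries, which share the contrast between groups.

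Among other genes of the macrophage lineage, nearly all calls were higher in IANX. Of 24 core macrophage and myeloid genes, 13 were higher in IANX, 1 was lower and 10 were not called, with a median log2 fold change of 1.24. At an unadjusted p under 0.05 edgeR had 19 higher and 1 lower, and DESeq2 called 16 higher and 1 lower. Lyz2, which encodes lysozyme, had 376, 1023 and 510 CPM in IANX 1, 2 and 3, against 256, 231 and 274 CPM in Sham 1, 2 and 3 (log2 fold change 1.33, adjusted p = 0.0280). Cybb, the catalytic subunit of the phagocyte NADPH oxidase, was also higher (log2 fold change 1.49, adjusted p = 0.00824). Mertk, the receptor for apoptotic cells, fell to 58.0, 81.4 and 53.6 CPM in IANX 1, 2 and 3, against 97.7, 101 and 104 CPM in Sham 1, 2 and 3 (log2 fold change -0.65, adjusted p = 0.0324). Schwann cell markers fell in the same samples, and their part in the values of Mertk was not tested. The call of Lyz2 was lost without each Sham library in turn (adjusted p = 0.0932 to 0.120), and that of Mertk without IANX 1 (0.102), IANX 3 (0.111) or each Sham library in turn (0.0791 to 0.113). Spi1, which encodes PU.1 and is named here after its values were seen, had 14.2, 37.0 and 22.7 CPM in IANX 1, 2 and 3, against 21.5, 22.1 and 26.0 CPM in Sham 1, 2 and 3. Its log2 fold change was 0.09 ± 0.33 (SE, edgeR adjusted p = 0.856), its groups overlapped, and without IANX 2 the value was -0.37.

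Of the 3 ligand genes of CSF1R and CX3CR1, 1 was lower and 2 were not called. Il34, which encodes interleukin-34, had 8.55, 27.3 and 14.2 CPM in IANX 1, 2 and 3, against 59.9, 79.0 and 58.0 CPM in Sham 1, 2 and 3 (log2 fold change -1.97 ± 0.40, SE, edgeR adjusted p = 0.0102). The groups did not overlap, while without Sham 2 the adjusted p was 0.0517. The change was 0.27 ± 0.17 (log2, SE) for Csf1 (adjusted p = 0.249) and -0.37 ± 0.37 (log2, SE) for Cx3cl1, which encodes fractalkine (adjusted p = 0.468), whose value was 0.03 without Sham 2.

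Of 22 genes of resident and scavenger macrophages, 21 were found, 17 were tested, and 9 were higher, none lower and 8 not called, with a median log2 fold change of 1.23. At an unadjusted p under 0.05 edgeR had 13 higher and 0 lower, and DESeq2 called 11 higher and 0 lower. Colec12 had 198, 248 and 200 CPM in IANX 1, 2 and 3, against 47.8, 38.3 and 44.5 CPM in Sham 1, 2 and 3 (log2 fold change 2.31, adjusted p = 0.000419). Olfml3 (log2 fold change 1.62), Stab1 (0.95), a scavenger receptor, and Tmem119 (1.67), known as a microglia marker and also made by bone-forming cells, were higher too, with adjusted p of 0.00446, 0.0191 and 0.00799. The call of Stab1 was lost without Sham 1 (adjusted p = 0.0763) or Sham 2 (0.0919). In the same samples 2 of 4 fibroblast markers were higher. The part of cells other than macrophages in the values of this list was not tested. Marco had no count in any library.

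Of 13 genes of recruited monocytes, 11 were found, 10 were tested, and 7 were higher, 1 lower and 2 not called, with a median log2 fold change of 1.89. Over all tested genes, 17.8% were called higher. At an unadjusted p under 0.05 edgeR had 8 higher and 1 lower, and DESeq2 called 7 higher and 1 lower. Their summed level overlapped, at 1382 to 2115 CPM in IANX and 1253 to 1585 CPM in Sham. Spp1, the highest by level in both groups, was not called (log2 fold change -0.44). The 3 highest by level among those that rose, Fn1 (1.15), Vcan (2.83) and Thbs1 (2.87), encode matrix proteins that fibroblasts and other cells also make. Their adjusted p were 0.0256, 0.0111 and 0.000865. Nr4a1, an immediate-early transcription factor that patrolling monocytes need in mice, was lower (log2 fold change -1.69, adjusted p = 0.0198). Without Sham 2 or Sham 3, the adjusted p was 0.117 and 0.113 for Fn1 and 0.0594 and 0.0575 for Vcan, and for Nr4a1 it was 0.0689 without IANX 3 and 0.0555 to 0.0753 without each Sham library in turn. Ccr2, the chemokine receptor that defines classical monocytes, had 3, 8 and 7 counts in IANX 1, 2 and 3, against 1, 0 and 0 counts in Sham 1, 2 and 3, and was below the filter.

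Osteoclasts also express Csf1r and Cd68 and derive from the same lineage. Of 8 osteoclast markers, 6 were tested, and 3 were higher (Ctsk, Mmp9 and Atp6v0d2), none lower and 3 not called. At an unadjusted p under 0.05, and by DESeq2, the counts were also 3 and 0. Without 1 library, the call of Ctsk was lost for IANX 2 (adjusted p = 0.0533), IANX 3 (0.0588) and each Sham library (0.0539 to 0.129), that of Mmp9 for IANX 3 (0.0663) and each Sham library (0.0540 to 0.102), and that of Atp6v0d2 for IANX 2 (0.0748), IANX 3 (0.0950), Sham 2 (0.142) and Sham 3 (0.137). The summed level of the osteoclast markers was 389, 1284 and 662 CPM in IANX 1, 2 and 3, against 392, 136 and 298 CPM in Sham 1, 2 and 3, so that the groups overlapped. IANX 2 was the highest and Sham 2 the lowest library, and Sham 2 was also the lowest Sham library for 9 of the 10 macrophage genes. Dcstamp, a fusion receptor of osteoclast precursors, had no count in any library. The part of osteoclasts in the levels of the 10 genes was not tested.

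**Figure D5:**
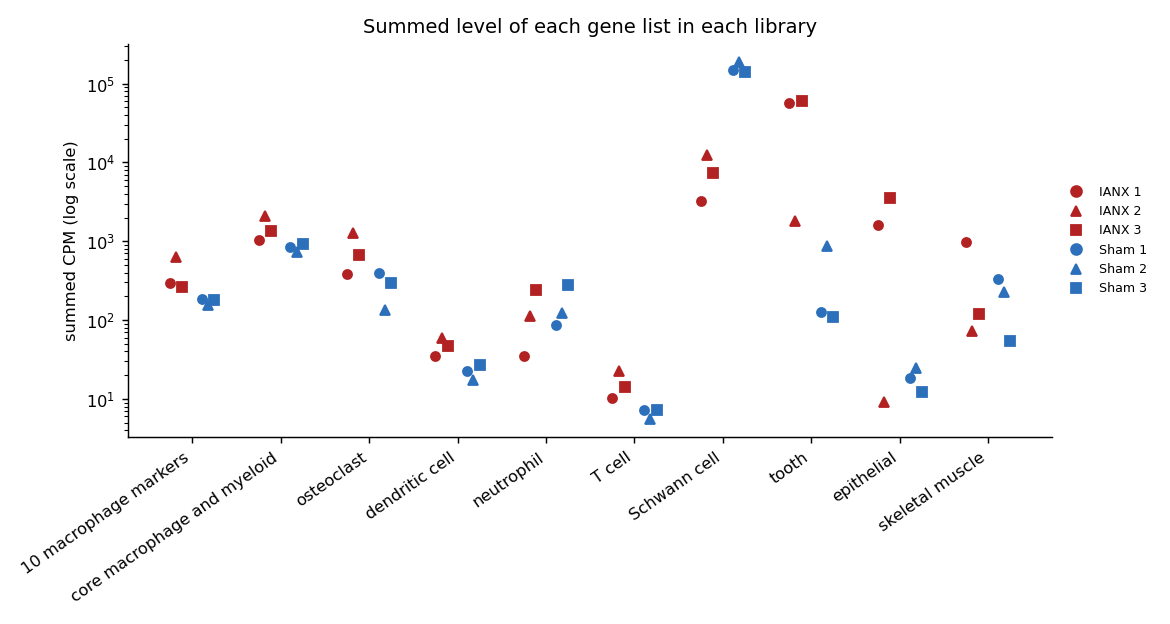
Summed CPM of the 10 macrophage markers and of 9 other gene lists in each library, on a log axis. The 10 macrophage markers span 260 to 631 CPM in IANX and 157 to 187 CPM in Sham, while tooth and epithelial markers differ between IANX 2 and the other IANX libraries by far more.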

How the data were processed

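The authors deposited raw counts per gene of poly-A RNA libraries. Per the labels, the processing used HISAT2 2.0.5, StringTie 1.3.3b, featureCounts 1.5.0-p3 and the build rn6. The annotation release and the strand setting are not given in the sources used here. The FPKM values were deposited by the authors, with library sizes that track the size factors of DESeq2. They served to compare levels between genes. The 5 columns of the authors' own comparison (fold changes, p-values) were not used.

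In edgeR 4.0.16 (R 4.3.3), counts were filtered with filterByExpr, scaled by TMM and fitted by glmQLFit. Condition was the only term in glmQLFTest, and p-values were adjusted by the Benjamini-Hochberg method over all 15374 tested genes. The standard error is the log2 fold change over the square root of F. Log2 CPM used a prior count of 2. Differences relative to Csf1r took the two-sided exact permutation test. The 16 alternatives per gene, given in the closing section, included DESeq2 1.42.0 and limma 3.58.1 on log2(FPKM + 1) and log2(FPKM + 0.1). The methods were also run on simulated counts, drawn independently for each gene from the fitted dispersions. The simulation held no library that was high for a whole gene set and no neighbouring tissue. It thus does not show how the methods behave with those features of these libraries. All 10 genes are named, and of each other list at most 4 called genes by mean CPM plus any marker with no count in a group. One gene that this rule names is not reported here. The genes with the nearest profile excluded symbols that a spreadsheet had turned into dates. The 10 genes and the lists were chosen with earlier results of these data known.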

Additional observations from a re-analysis of the deposited data

How the results depend on the processing

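All 10 genes kept a positive log2 fold change under each of 16 alternatives, and none was called lower in any of them. Mpeg1 and Siglec1 were called higher in 16 of 16, Cd68 in 11, Cx3cr1 in 9, Folr2 in 7, Mrc1 in 4, and Adgre1, Csf1r, Cd163 and Aif1 in 3 each. Against 4 genes called higher in the comparison as reported, 10 were called with library sizes only, a scaling under which the median log2 fold change of all genes was 0.53 and 38.5% of them were called higher (17.8% as reported). With unfiltered log2(FPKM + 1) in limma, 2 were called (7.02%). The fit of IANX 2 alone against Sham is 1 of the 16 alternatives and has no IANX replicate behind a call. It adds 1 to the count of calls given above for each gene. Leaving out 1 library at a time gave 2 (without Sham 1, 2 or 3, with 9.61%, 6.36% and 5.95% of tested genes called higher) to 9 (without IANX 3, 10.9%), with 5 without IANX 1 (12.6%) and 3 without IANX 2 (23.1%). With fewer samples the adjusted p also moves with the number of genes called. The count was 4 with RLE size factors (16.6%), 6 with DESeq2 (17.8%), 5 without a filter on low counts (11.2%) and 5 with tooth, epithelial, bone and muscle marker genes left out of the scaling (17.9%). The cause of these differences was not tested.

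With the replicate number as a block, 2 genes were called (Mpeg1 and Siglec1), with 14.1% of tested genes higher. The numbers are not said to pair rats, and the deviations of same-numbered samples correlated at 0.086, -0.014 and 0.075, with 2 of the 3 IANX samples closest to the Sham sample of their own number. The differences relative to Csf1r moved by less than the spread between replicates under another prior count, with FPKM and without each library in turn, and those of Adgre1, Aif1 and Cd163, which were near 0, changed sign without 1 library. For the named genes of the macrophage, monocyte, phagocyte, osteoclast, dendritic and lymphoid or mast cell lists, the call was lost in 93 of 508 comparisons with an alternative, gained in 1 (Csf1, library sizes only) and the direction turned in 7. Spi1, not called at any setting, ranged from -0.37 (without IANX 2) to 0.37 (without IANX 1) when 1 library was left out, and turned to -0.015 with the replicate block, -0.044 with log2(FPKM + 1), with or without the filter, and -0.056 with log2(FPKM + 0.1). Cx3cl1 turned to 0.11 with library sizes only, and ranged from -0.56 (without Sham 1) to 0.031 (without Sham 2) when 1 library was left out.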

Other observations

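Of 12 genes of activated phagocytes, 3 were higher in IANX, 2 were lower and 7 were not called, with a median log2 fold change of 0.75. Gpnmb, a glycoprotein of lipid-laden macrophages, had 65.3, 207 and 118 CPM in IANX 1, 2 and 3, against 25.8, 20.0 and 28.2 CPM in Sham 1, 2 and 3 (log2 fold change 2.40, edgeR adjusted p = 0.00531). Lipa, the acid lipase of the lysosome, rose as well (log2 fold change 1.88, adjusted p = 0.0108). Its call was lost without Sham 2 (log2 fold change 1.83, adjusted p = 0.0620) or Sham 3 (1.85, 0.0550). Cd9, a tetraspanin that Schwann cells also express, fell to 216, 608 and 341 CPM in IANX 1, 2 and 3, against 3062, 3373 and 2892 CPM in Sham 1, 2 and 3 (log2 fold change -3.0, adjusted p = 0.00231). Lpl, lipoprotein lipase, was also lower (log2 fold change -2.10, adjusted p = 0.000463). Schwann cell markers fell in the same samples, and their part in the values of Cd9 and Lpl was not tested.

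Of 8 dendritic cell markers, 4 were higher (Cd1d1, Clec9a, Batf3 and Ccr7), none lower and 4 not called (also 4 and 0 at an unadjusted p under 0.05 and by DESeq2), and they summed to 35.3, 58.5 and 46.5 CPM in IANX 1, 2 and 3, against 22.4, 17.2 and 26.6 CPM in Sham 1, 2 and 3. Of the 4 calls, that of Cd1d1 held without each library in turn, while those of Clec9a (adjusted p = 0.0521 to 0.0896) and Batf3 (0.0792 to 0.112) were lost without each Sham library in turn, Clec9a also without each IANX library in turn, and that of Ccr7 without IANX 3 (0.0861) or each Sham library in turn (0.0542 to 0.105). Of 6 tested T cell markers, 3 were higher (Lck, Cd8a and Cd3e) at low levels, with sums of 10.1 to 22.8 CPM in IANX and 5.50 to 7.31 CPM in Sham. Cd5 had no count in Sham. Cd3g, Cd2 and Cd3d were not called and overlapped between groups, with log2 fold changes of -0.54, 0.57 and 0.81. Cd3g had 1.02, 4.30 and 1.84 CPM in IANX 1, 2 and 3, against 4.35, 3.08 and 3.03 CPM in Sham 1, 2 and 3. The calls of Cd3e (without each library in turn, 0.0532 to 0.125), Cd8a (without each Sham library in turn, 0.0713 to 0.0761) and Lck (without Sham 2, 0.0529) did not hold. None of 7 tested neutrophil markers was called by edgeR, with 1 higher at an unadjusted p under 0.05 and 1 by DESeq2, and with sums of 34.8 to 244 CPM in IANX and 86.7 to 276 CPM in Sham. Of 5 B cell markers, 1 was lower (Pax5), and of 5 mast cell markers 1 was higher (Kit, which other cells also express). Both calls were lost without each Sham library in turn (0.0732 to 0.159 for Pax5, 0.0719 to 0.0828 for Kit), that of Pax5 also without IANX 3 (0.0585). Kit had 129, 11.3 and 35.6 CPM in IANX 1, 2 and 3, against 6.14, 6.83 and 4.36 CPM in Sham 1, 2 and 3. The other 4 mast cell markers were not called, and their log2 fold changes were negative. They were -0.19 for Cpa3, -0.86 for Cma1, -0.78 for Tpsab1 and -0.92 for Ms4a2.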
